A study of Mus musculus with 6 samples.

Results

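Cell cycle and replication genes were examined in RNA from ear skin of mice at postnatal day 21. The module held 36 named genes of 18482 in the read count table, 22 that act in mitosis and 14 that act in S phase or its onset, and it was chosen by gene symbol, with no measured value in the rule. The control group consisted of littermates and the lecko group carried a lymphatic-specific knockout of Vegfr2 (gene symbol Kdr), with 3 libraries in each group. All mice, controls included, had received tamoxifen, the agent used to induce the deletion. Several dosing schedules are described, without saying which of them the ear skin mice had, and the sources used here name no Cre driver, strain or sex. Whole ear was profiled, so lymphatic endothelial cells were a small part of each sample. The labels do not name the animal behind each library, so p-values measure the spread between these libraries, which may be partly technical.

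A dividing cell first copies its DNA and then separates the copies. In S phase the MCM2-7 complex, loaded onto origins by CDC6 and CDT1, unwinds the double helix, PCNA holds the polymerases on the template, and ribonucleotide reductase and thymidylate synthase supply nucleotides. This programme is switched on by E2F factors and by cyclin E. In mitosis CDK1 with cyclins A and B, Aurora and Polo kinases, kinesins and kinetochore proteins condense, align and part the chromosomes, and the anaphase-promoting complex with CDC20 and UBE2C ends the phase. In young skin the cells known to divide are mainly basal keratinocytes and hair matrix cells, with fibroblasts, chondrocytes, leukocytes and endothelial cells beside them.

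The proximal promoters of these genes are known for 3 short motifs, and 7 promoters are shown, picked after the matches were seen because they hold these motifs close to the start. They come from RefSeq (GRCm38.p6), which matched 18 of the 22 mitosis genes with 19 promoter windows and 12 of the 14 S phase genes with 13 windows. Each line gives the 180 bases before the transcription start of the gene's RefSeq window, 5′ to 3′ on the gene's strand. Capitals mark an E2F motif (TTTCCCGC, TTTGGCGC, TTTGCCGC or TTTCGCGC), a CHR, the cell cycle genes homology region (TTTGAA or TTCGAA), or a CCAAT box, each read on both strands. Where E2F matches overlapped, in Mcm5 and Mcm6, they run together as a single block of capitals. The first 4 are mitosis genes and the last 3 are S phase genes.
Cdc20: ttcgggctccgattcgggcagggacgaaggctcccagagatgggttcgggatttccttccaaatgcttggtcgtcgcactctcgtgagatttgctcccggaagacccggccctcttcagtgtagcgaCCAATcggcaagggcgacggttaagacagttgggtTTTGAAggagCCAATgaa
Cdk1: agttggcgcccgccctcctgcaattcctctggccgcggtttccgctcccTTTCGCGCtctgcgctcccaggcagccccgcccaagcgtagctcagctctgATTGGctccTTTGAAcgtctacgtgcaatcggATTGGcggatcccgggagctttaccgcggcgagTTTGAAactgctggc
Kif11: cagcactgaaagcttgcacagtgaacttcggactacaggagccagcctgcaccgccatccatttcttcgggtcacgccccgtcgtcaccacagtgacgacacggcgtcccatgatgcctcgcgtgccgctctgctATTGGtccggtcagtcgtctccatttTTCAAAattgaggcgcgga
Ube2c: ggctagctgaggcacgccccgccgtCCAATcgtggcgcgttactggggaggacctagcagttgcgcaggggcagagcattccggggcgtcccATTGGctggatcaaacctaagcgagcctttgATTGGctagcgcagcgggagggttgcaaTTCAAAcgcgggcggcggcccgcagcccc
Mcm3: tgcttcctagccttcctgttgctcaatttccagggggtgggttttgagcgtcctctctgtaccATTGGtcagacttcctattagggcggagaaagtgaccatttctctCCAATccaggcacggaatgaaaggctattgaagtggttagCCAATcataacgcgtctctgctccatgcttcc
Mcm5: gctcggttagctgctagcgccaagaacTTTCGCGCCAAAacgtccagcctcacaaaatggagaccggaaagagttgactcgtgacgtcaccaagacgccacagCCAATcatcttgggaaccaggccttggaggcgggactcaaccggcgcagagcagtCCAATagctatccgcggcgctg
Mcm6: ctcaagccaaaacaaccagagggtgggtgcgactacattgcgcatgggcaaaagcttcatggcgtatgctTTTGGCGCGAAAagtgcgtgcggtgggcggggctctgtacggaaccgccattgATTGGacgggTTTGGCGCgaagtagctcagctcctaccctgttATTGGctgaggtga

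These stretches lie at chr4:118437344-118437523 (minus strand, Cdc20), chr10:69352913-69353092 (minus, Cdk1), chr19:37376202-37376381 (plus, Kif11), chr2:164769749-164769928 (plus, Ube2c), chr1:20820313-20820492 (minus, Mcm3), chr8:75109329-75109508 (plus, Mcm5) and chr1:128359706-128359885 (minus, Mcm6), all in GRCm38.p6. Apart from Mcm5, they lie upstream of the annotated gene. The Mcm5 stretch runs past 75109468, the first annotated base of that gene, so its end lies inside the gene. Counted back from the start, Cdc20 held a CHR at position -18 with CCAAT boxes at -53 and -8. Cdk1 had CHR letters at -71 and -15, and an E2F motif at -131. Kif11 and Ube2c each had a single CHR, at -19 and -29. The 3 S phase promoters held 3, 2 and 2 CCAAT boxes and no CHR letters, with overlapping E2F matches at -153 and -149 in Mcm5 and at -110 and -106 in Mcm6, and a separate E2F match at -47 in Mcm6. Over the 250 bases before each start, CHR letters stood in 9 of 19 mitosis windows (47.4%), 2 of 13 S phase windows (15.4%) and 17.1% of all 32851 windows. CCAAT letters stood in 17 mitosis windows (89.5%), 8 S phase windows (61.5%) and 33.8% of all windows. E2F letters stood in 1 mitosis window (5.26%), 4 S phase windows (30.8%) and 1.86% of all windows. Mean GC content was 60.0%, 62.1% and 53.2% in the same order, and a match is a description of the letters, not a site in use.

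The libraries were of similar depth, with total counts of 17242921 to 17825135, and the 36 genes took 0.0786 to 0.098% of them. All 36 passed the filter on low counts, from 56 counts in the lowest library of Ccne1 to 1944 in the highest of Pcna. Kdr was at 32.6, 31.3 and 38.5 CPM (counts scaled to library size) in controls 1 to 3 and at 9.76, 11.2 and 10.2 CPM in lecko 1 to 3, and it fell by 1.72 on the log2 scale (SE 0.10, edgeR quasi-likelihood test, Benjamini-Hochberg adjusted p = 0.00026). Counts of 4 Y-linked genes were 4272 and 4564 in controls 2 and 3 and between 4 and 21 in the other libraries, so sex and genotype cannot be told apart except through control 1, which lacked Y-linked reads as the lecko libraries did. Control 3 stood apart in the genes described here. The medians of the mitosis, S phase, MCM2-7 and replication fork genes are given with and without it. For single genes the value without control 3 is given for some only. Skin markers were abundant: 7 basal keratinocyte genes, among them Krt5 and Krt14, summed to between 9657 and 11125 CPM in every library.

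No cell cycle gene differed between lecko and control skin by the test over all genes. The 0 of 36 called stand beside 3 of 14856 genes (0.0202%) called at an adjusted p below 0.05 by edgeR, and the smallest adjusted p among the 36 was 0.385, for Mcm4. At an unadjusted p below 0.05, 2 of 36 (5.56%) were higher in lecko skin, against 4.89% of all genes, and 0 were lower, against 3.68%. Without control 3 the count was 5 higher and 0 lower, beside 1057 of 14996 genes below that p in either direction. Without control 2 it was 3 higher and 2 lower, beside 1743 of 15008 genes in either direction. DESeq2 and limma-voom also called 0 of the 36, beside 32 and 3 of 14856 genes called. Each put 2 of the 36 below an unadjusted p of 0.05, beside 969 genes by DESeq2 and 1334 by limma-voom in either direction. The 95% interval of the difference lay within 1.5-fold in either direction for all 14 S phase genes and for 16 of the 22 mitosis genes, and within 2-fold for all 36. The median log2 difference was -0.03 over the mitosis genes and 0.09 over the S phase genes, against 0.01 over all genes tested.

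**Figure D1:**
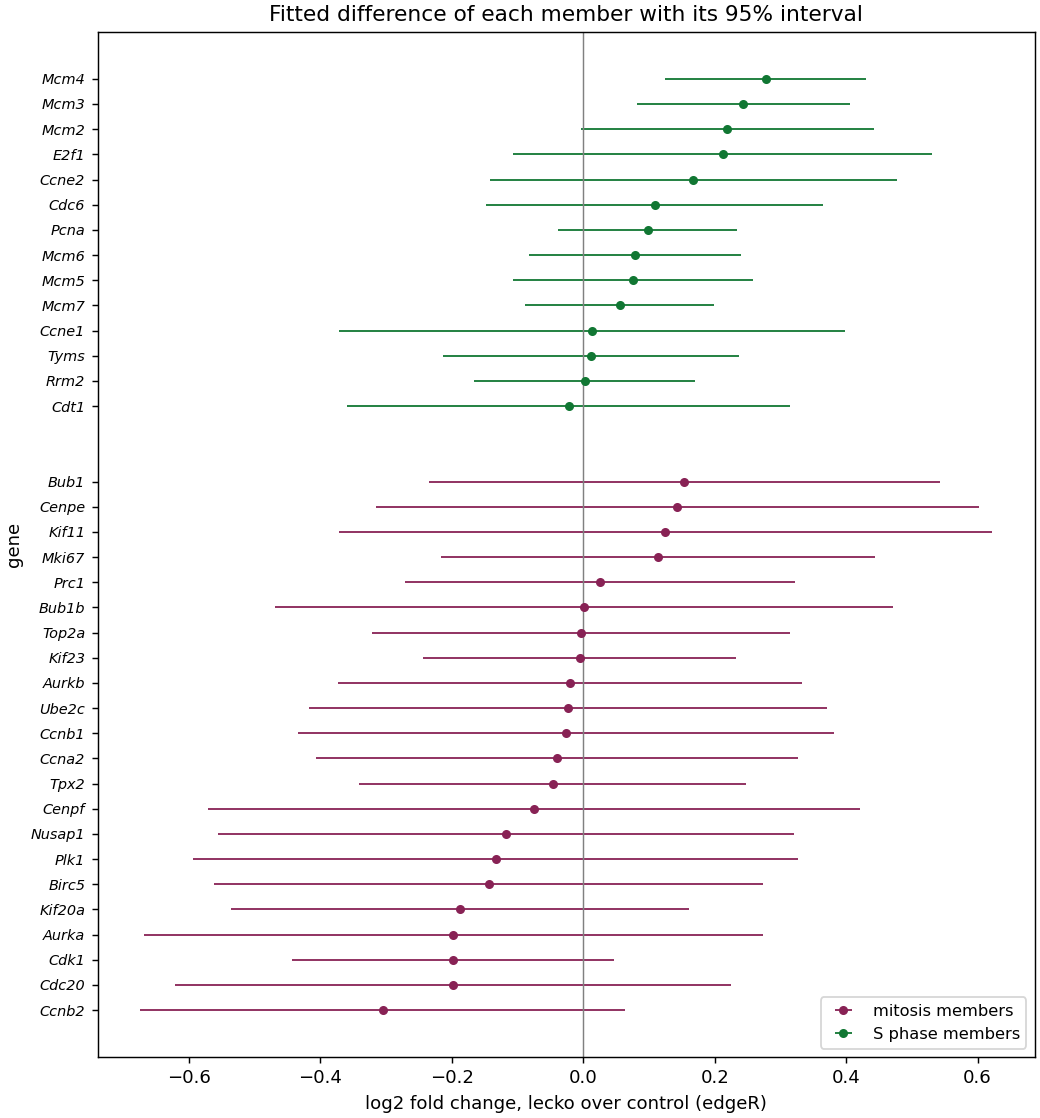
Fitted log2 fold change of lecko over control (horizontal axis) for the 14 S phase genes (green, upper block) and the 22 mitosis genes (purple, lower block), with 95% intervals from edgeR. Intervals of Mcm4 and Mcm3 lie above 0 before adjustment over all genes, and the intervals of the mitosis genes are wider and all include 0.

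The mitosis genes varied together between control libraries, over a wider range than among lecko libraries. Of the 22, 21 (95.5%) had their highest CPM of all 6 libraries in control 3, where 19.9% of all genes did, and the exception, Bub1, was at 7.19 CPM in control 3 and 7.21 CPM in lecko 3. Of the 22, 16 (72.7%) had their lowest CPM in control 2, where 13.6% of all genes did. Their summed level was 433, 365 and 557 CPM in controls 1 to 3 and 462, 422 and 446 CPM in lecko 1 to 3. The controls thus spanned the whole lecko range on both sides. For 17 of the 22 genes (77.3%, against 5.44% of all genes) all 3 lecko libraries lay between controls 2 and 3. These are the controls where most mitosis genes were lowest and highest, so this count in part repeats those above. The median coefficient of variation of the mitosis genes was 22.7% among controls and 7.16% among lecko libraries, and 7.38% and 7.49% over all genes. In whole tissue, fewer cells of a type and less RNA per cell cannot be told apart, so these levels do not separate the number of dividing cells from their RNA content.

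**Figure D2:**
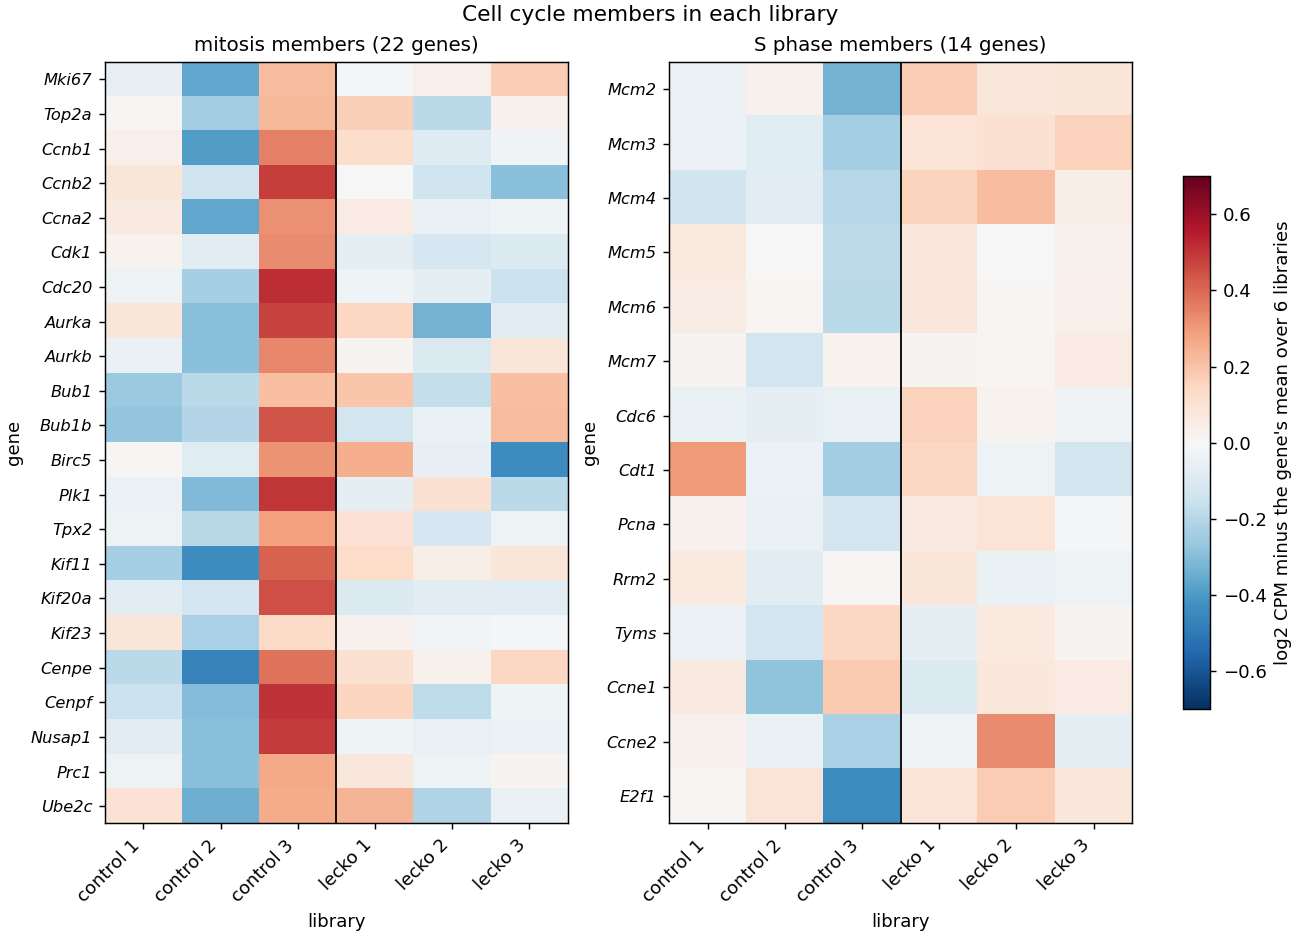
Each cell shows the log2 CPM of a gene in a library minus that gene's mean over the 6 libraries, for the mitosis genes (left) and the S phase genes (right), with a vertical line between the 3 control and the 3 lecko libraries. Control 3 is red (high) across the mitosis genes and blue (low) for Mcm2 to Mcm6 and E2f1, and control 2 is blue across most mitosis genes.

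Levels between genes were compared per kilobase of the longest protein-coding transcript in GENCODE vM21. Among mitosis genes Ccna2 (cyclin A2), Top2a, Cdc20 and Prc1 had the highest levels, at 11.6, 11.4, 10.4 and 9.45 CPM per kb, and Cenpe and Cenpf the lowest, at 0.87 and 1.12 CPM per kb. Pcna was the most abundant of all 36, at 67.9 CPM per kb, followed by Mcm7 at 16.0, Mcm6 at 15.7 and Rrm2 at 13.9 CPM per kb. The lowest S phase genes were Cdc6 at 1.64 and Ccne1 at 1.97 CPM per kb.

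Cyclins and kinases that drive entry into mitosis included the mitosis genes with the smallest p, Ccnb2 and Cdk1, and none passed. Ccnb2, cyclin B2, was at 12.2, 10.5 and 16.1 CPM in controls 1 to 3 and at 11.5, 10.5 and 9.42 CPM in lecko 1 to 3. Control 3 was highest and the groups overlapped at control 2, with a log2 fold change of -0.31 (SE 0.16, adjusted p = 0.625 by edgeR). Cdk1, the kinase that cyclins A and B activate, was at 23.2, 21.6 and 28.7 CPM in controls and 21.7, 21.0 and 21.3 CPM in lecko libraries (log2 -0.20, SE 0.11, adjusted p = 0.634 by edgeR). Its lecko values lay within 1 CPM of each other and overlapped control 2. Ccna2, cyclin A2, was at 35.6, 26.5 and 42.5 CPM in controls and 35.5, 33.0 and 33.3 CPM in lecko libraries, so that all lecko values fell between those of controls 2 and 3. The remaining genes of this class are Ccnb1 (log2 -0.03), Aurka (-0.20), Aurkb (-0.02) and Plk1 (-0.13), which encode cyclin B1, the Aurora kinases and Polo-like kinase 1. All 7 genes had negative log2 fold changes by edgeR, and without control 3 the negative ones were Ccnb2 (-0.12) and Cdk1 (-0.07).

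Exit from mitosis runs through CDC20, the activator of the anaphase-promoting complex, and UBE2C, its ubiquitin-conjugating enzyme. Cdc20 was at 17.9, 15.6 and 26.2 CPM in controls 1 to 3 and at 17.9, 17.5 and 16.5 CPM in lecko 1 to 3. Control 3 was 1.68-fold above control 2 and 1.47-fold above control 1, while the lecko libraries lay beside controls 1 and 2 (log2 -0.20, SE 0.18, adjusted p = 0.791 by edgeR). Ube2c gave 13.8, 10.1 and 15.4 CPM in controls and 15.1, 11.1 and 12.4 CPM in lecko libraries, a log2 fold change of -0.02.

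Spindle genes were all highest in control 3 and lowest in control 2. Kif20a, a kinesin of the central spindle, was at 12.5, 12.0 and 18.0 CPM in controls and 12.4, 12.5 and 12.5 CPM in lecko libraries (log2 -0.19, SE 0.15, adjusted p = 0.765 by edgeR). Prc1, which bundles the microtubules of the central spindle, was at 27.7, 23.2 and 34.2 CPM in controls and 30.0, 27.8 and 28.8 CPM in lecko libraries, with control 3 highest, control 2 lowest and the lecko values between them. Kif11, the motor that pushes spindle poles apart, had one of the widest spans, 1.81-fold from control 2 (17.7 CPM) to control 3 (31.9 CPM), with lecko libraries at 26.1, 24.7 and 25.4 CPM. Its log2 fold change was 0.12, and 0.42 without control 3. The others were Kif23 (log2 -0.01), Tpx2 (-0.05) and Nusap1 (-0.12), each lowest in control 2 and highest in control 3.

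Chromosome, kinetochore and checkpoint genes gave differences of either sign. Top2a, which untangles sister chromatids, was at 59.6, 50.0 and 69.7 CPM in controls and 66.4, 52.0 and 60.4 CPM in lecko libraries, so the lecko range lay inside the control range (log2 0.00, SE 0.14). The proliferation antigen gene Mki67 was at 60.3, 48.6 and 73.1 CPM in controls and 62.2, 64.1 and 70.6 CPM in lecko libraries (log2 0.11). Lecko values of Mki67 all lay above controls 1 and 2 and below control 3. Bub1 (0.15) and Bub1b (0.00), which encode checkpoint kinases, Birc5 (-0.14), which encodes survivin of the chromosomal passenger complex, and the kinetochore genes Cenpe (0.14) and Cenpf (-0.08) completed the class.

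With control 3 left out, the median log2 difference of the mitosis genes was 0.13, with 19 of 22 positive, and with control 2 left out it was -0.19, with 1 of 22 positive. The sign therefore depended on which control library was used, and 0 mitosis genes were called in either fit. Without control 3, log2 fold changes were 0.42 for Cenpe, 0.26 for Bub1b, 0.21 for Cenpf, 0.14 for Nusap1, 0.13 for Plk1 and 0.05 for Cdc20. Among the cell type markers, control 3 held the lowest sum of 7 pan-leukocyte genes (197 CPM, against 233 and 275 CPM in controls 1 and 2) and of 7 macrophage genes (398 CPM, against 485 and 670 CPM). Its sum of 7 fibroblast genes was also the lowest, at 22221 CPM against 27099 CPM in control 1 and 35762 CPM in control 2. The 7 chondrocyte genes summed to 570 CPM in control 3 and to 676 and 775 CPM in controls 1 and 2. The 7 lymphatic endothelial genes summed to 359 CPM in control 3 and to 388 and 409 CPM in controls 1 and 2. Among controls, the order of all these lists was opposite to that of the mitosis genes. Control 3 held the highest sums of 7 blood and pan-endothelial genes (395 CPM, against 353 and 367 CPM) and of 7 skeletal muscle genes (5443 CPM, against 5105 and 4854 CPM). It also held the highest sum of 6 suprabasal keratinocyte genes (20559 CPM, against 18402 and 17985 CPM). The skeletal muscle and suprabasal lists had the same order among controls as the mitosis genes. Basal keratinocyte genes summed to 11033 CPM in control 3, 11125 CPM in control 1 and 9917 CPM in control 2. The 7 hair matrix genes, among them Msx2 and Hoxc13, and with Shh below the filter on low counts, summed to 153 CPM in control 3, inside the range of 151 to 166 CPM of the controls. The 12 hair shaft and inner root sheath genes summed to 19.9 CPM in control 3, 43.6 CPM in control 1 and 11.8 CPM in control 2. In each of these lists 0 markers were without counts in all libraries, and the part of any of these cell types in the mitosis levels was not tested.

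Mcm4, Mcm3 and Mcm2, subunits of the replicative helicase, had the smallest p of the 36 genes, with positive log2 fold changes, and none passed over all genes. Mcm4, a catalytic-core subunit, was at 39.6, 41.2 and 38.0 CPM in controls 1 to 3 and at 48.5, 50.5 and 45.1 CPM in lecko 1 to 3. The groups did not overlap, and lecko skin was at a log2 fold change of 0.28 (95% interval 0.12 to 0.43, adjusted p = 0.385 by edgeR). Mcm3 was at 35.5, 34.4 and 31.0 CPM in controls and 39.2, 39.5 and 40.9 CPM in lecko libraries, again without overlap (log2 0.24, 95% interval 0.08 to 0.41, adjusted p = 0.492 by edgeR). Mcm2 was at 26.8, 28.1 and 21.9 CPM in controls and 31.0, 29.1 and 29.2 CPM in lecko libraries (log2 0.22, 95% interval -0.0041 to 0.44, adjusted p = 0.589 by edgeR). Here control 2 came close to the lecko values and control 3 was the lowest, and without control 3 the log2 fold change of Mcm2 was 0.12.

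The other subunits of the ring overlapped between groups. Mcm6 was at 70.5, 68.7 and 59.8 CPM in controls and 71.9, 68.4 and 69.9 CPM in lecko libraries (log2 0.08), with control 3 the sole low library. Mcm7 was at 48.0, 43.5 and 48.2 CPM in controls and 48.0, 47.9 and 49.3 CPM in lecko libraries (log2 0.06), and here control 2 was the low library. Mcm5 had a log2 fold change of 0.08. Without control 3, Mcm5 and Mcm6 were at 0.0062 and 0.0098. The log2 difference was above 0 for all 6 helicase genes (median 0.15), and the median was 0.10 without control 3. Set against control 1 alone, a comparison added after the data were seen in which that library is assumed to vary as the lecko libraries do, 4 of 6 were above 0 and the median was 0.08. With sex as a covariate the median was 0.08, in a fit whose group difference likewise rests on control 1, so this is not a separate check. Lecko values of Mcm2, Mcm3 and Mcm4 were all above control 1.

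**Figure D3:**
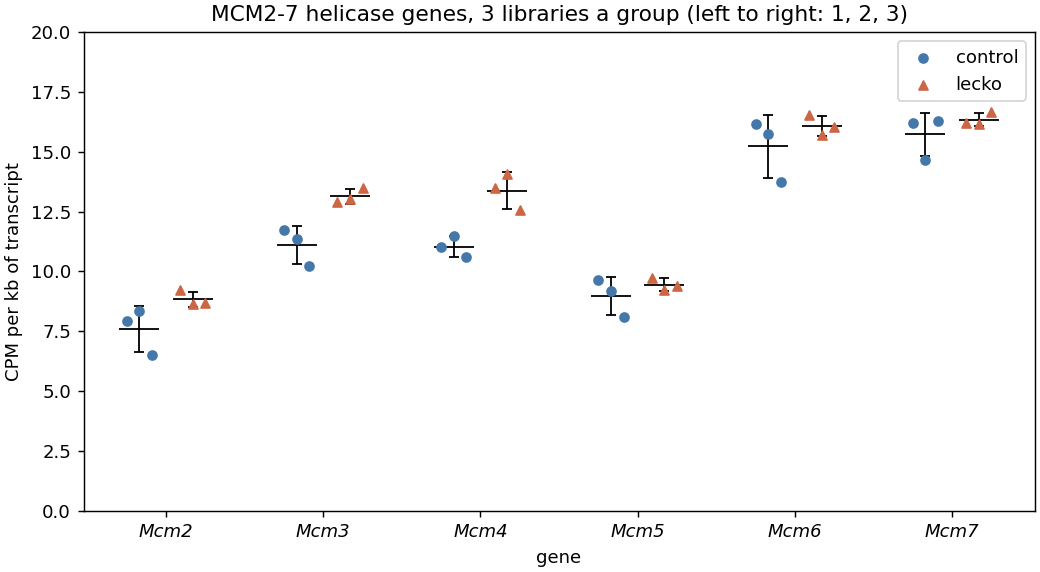
CPM per kilobase of transcript for Mcm2 to Mcm7 in the 3 control (blue circles) and 3 lecko (orange triangles) libraries, with the group mean (horizontal bar) and SD (n = 3). Mcm2, Mcm3 and Mcm4 show no overlap between groups, control 3 is the lowest library for 5 of the 6 genes, and Mcm5, Mcm6 and Mcm7 overlap.

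Of the 36 genes, 4 (11.1%) had lecko libraries wholly above the controls, Mcm2, Mcm3, Mcm4 and Cdc6, against 7.37% of all genes, and 0 had them wholly below, against 7.23%. Cdc6, which loads the helicase, did so by a narrow margin, at 7.32, 7.24 and 7.31 CPM in controls and 8.46, 7.69 and 7.43 CPM in lecko libraries (log2 0.11). Cdt1, its partner in loading, was at a log2 fold change of -0.02 by edgeR, and its sign was not stable, at 0.13 without control 1 and -0.14 without control 3. It was highest in control 1 (13.8 CPM) and lowest in control 3 (9.48 CPM), with lecko libraries between 10.3 and 12.4 CPM.

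Pcna, the sliding clamp, was at 104.9, 99.8 and 94.1 CPM in controls and 107.7, 109.9 and 102.2 CPM in lecko libraries. The groups overlapped through control 1 alone, with a log2 fold change of 0.10 (SE 0.06, adjusted p = 0.676 by edgeR). Rrm2, the regulated subunit of ribonucleotide reductase, was at 31.9, 28.7 and 30.6 CPM in controls and 32.2, 29.5 and 29.7 CPM in lecko libraries, and its difference was the closest to 0 of the S phase genes (log2 0.00, 95% interval -0.17 to 0.17). Tyms, thymidylate synthase, was at a log2 fold change of 0.01. The cyclin E genes Ccne1 and Ccne2 were at 0.01 and 0.17, and E2f1 at 0.21. E2f1 was at 11.8, 12.5 and 8.62 CPM in controls and 12.5, 13.3 and 12.4 CPM in lecko libraries, with control 3 again low and the other libraries within a span of 1.5 CPM. Without control 3 the log2 fold change of E2f1 was 0.0646, and that of Pcna was 0.0581.

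Control 3 thus ranked last in many S phase genes while ranking first in mitosis genes. It held the lowest CPM of the 6 libraries for 9 of 14 S phase genes (64.3%), where 22.1% of all genes had their lowest value. The summed level of the S phase genes was 453, 434 and 407 CPM in controls 1 to 3 and 474, 472 and 458 CPM in lecko 1 to 3. These sums did not overlap, but control 1 (453 CPM) and lecko 3 (458 CPM) were close. By mean log2 CPM of the same genes the groups did overlap, at 4.5283 in control 1 and 4.5275 in lecko 3. The mean log2 CPM of the mitosis genes minus that of the S phase genes was 0.04 in control 3 and lay between -0.66 and -0.46 in the other 5 libraries. The median ratio of control 3 to control 2 was 1.52 over mitosis genes, 0.91 over S phase genes and 1.00 over all genes. The median log2 difference of the S phase genes between genotypes was 0.09 with and without control 3, and 0.03 against control 1 alone.

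Other genes of replication forks and origins, a list outside the 36, were mostly on the higher side in lecko skin, and 0 of 28 passed. Of the 28, 26 had positive log2 fold changes, against 51.9% of all genes, with a median of 0.10. At an unadjusted p below 0.05, 4 (14.3%) were higher, against 4.89% of all genes. These included Gins1, a subunit of the GINS complex that joins the helicase, at 4.09, 3.56 and 3.31 CPM in controls and 4.51, 4.64 and 5.50 CPM in lecko libraries. Its log2 fold change was 0.42 (SE 0.16, adjusted p = 0.541 by edgeR). Mcm10, which acts at fork start, was at 4.73, 4.25 and 4.74 CPM in controls and 5.64, 6.11 and 5.50 CPM in lecko libraries (log2 0.33, SE 0.13, adjusted p = 0.551 by edgeR). Both genes showed no overlap between groups. For 6 of the 28 (21.4%) lecko libraries lay wholly above controls, against 7.37% of all genes, and for 1 (3.57%) wholly below, against 7.23%. The summed level was 524, 503 and 521 CPM in controls and 546, 558 and 549 CPM in lecko libraries. Without control 3 the median was 0.14 with 23 of 28 positive, and against control 1 alone it was 0.07 with 22 of 28 positive. The 4 higher at an unadjusted p below 0.05 became 0 by DESeq2 and with sex as a covariate. The count was 1 with control 3 or lecko 3 left out, 0 without control 2 and 2 without control 1, lecko 1 or lecko 2. Over all genes, in either direction, the number below that p was 1272 in the main edgeR fit and 969 by DESeq2. It was 776 with sex as a covariate, and 721 (without control 1) to 1743 (without control 2) with a library left out.

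Several cell type markers are set beside the S phase and fork genes, with 0 genes called in any of these lists. Pan-leukocyte and macrophage markers were all lowest in control 3 (7 of 7 in each list, against 22.1% of all genes). Blood and pan-endothelial and skeletal muscle markers were mostly highest there (6 of 7 in each list, against 19.9%). No value without control 3 is given for these lists. Of all genes tested, 51.9% had positive log2 differences. Pan-leukocyte markers summed to 273 to 365 CPM in lecko and 197 to 275 CPM in control libraries, sums that overlapped, with all 7 genes positive. Macrophage markers summed to 638 to 783 CPM in lecko and 398 to 670 CPM in control libraries, all 7 positive. Basal keratinocyte markers summed to 9657 to 10222 CPM in lecko and 9917 to 11125 CPM in control libraries, with 0 of 7 positive, and hair matrix markers to 142 to 162 CPM and 151 to 166 CPM. Hair shaft and inner root sheath markers summed to 28.2 to 55.7 CPM in lecko and 11.8 to 43.6 CPM in control libraries. These sums overlapped, and 9 of 9 tested genes were positive (median log2 difference 0.80). Lymphatic endothelial markers, of the cell type that the knockout targeted, summed to 311 to 338 CPM in lecko and 359 to 409 CPM in control libraries, with 2 of 7 positive. Which cells lost Kdr was not tested. Blood and pan-endothelial markers summed to 300.4 to 323 CPM in lecko and 353 to 395 CPM in control libraries, with 0 of 7 positive, and skeletal muscle markers to 3628 to 4593 CPM and 4854 to 5443 CPM, also with 0 of 7 positive. Fibroblast markers had a median log2 difference of 0.21 with 5 of 7 positive, and chondrocyte markers 0.27 with 6 of 6 tested positive. The part of these cell types in the S phase levels was not tested.

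Control 3 was also the highest library in summed level for further motor and spindle genes and for further checkpoint and kinetochore genes. For condensin and cohesin genes it depended on the measure. Lecko 3 had the highest sum (811 CPM, against 783 CPM in control 3), and control 3 the highest mean log2 CPM (5.64, against 5.61 in lecko 3). Of 16 further motor and spindle genes, 14 (87.5%) were highest in control 3 and 13 (81.2%) lowest in control 2. Their summed level was 199, 170 and 258 CPM in controls and 206, 191 and 196 CPM in lecko libraries. The median log2 difference was -0.10, with 0 of 16 called, and Kif4 (-0.12) and Tacc3 (-0.10) had the smallest p. Of 17 further checkpoint and kinetochore genes, 10 (58.8%) were highest in control 3 and 6 (35.3%) lowest in control 2, with a median of -0.05 and 0 called. Ttk, the checkpoint kinase MPS1, and Cenpa, the centromeric histone, had the smallest p there, at log2 fold changes of -0.20 and -0.19. Condensin and cohesin genes, which act on chromosomes in and outside mitosis, were highest in control 3 for 2 of 11 (18.2%), with a median of 0.05, and Ncapg2 and Smc2 were at 0.17 and 0.17.

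**Figure D4:**
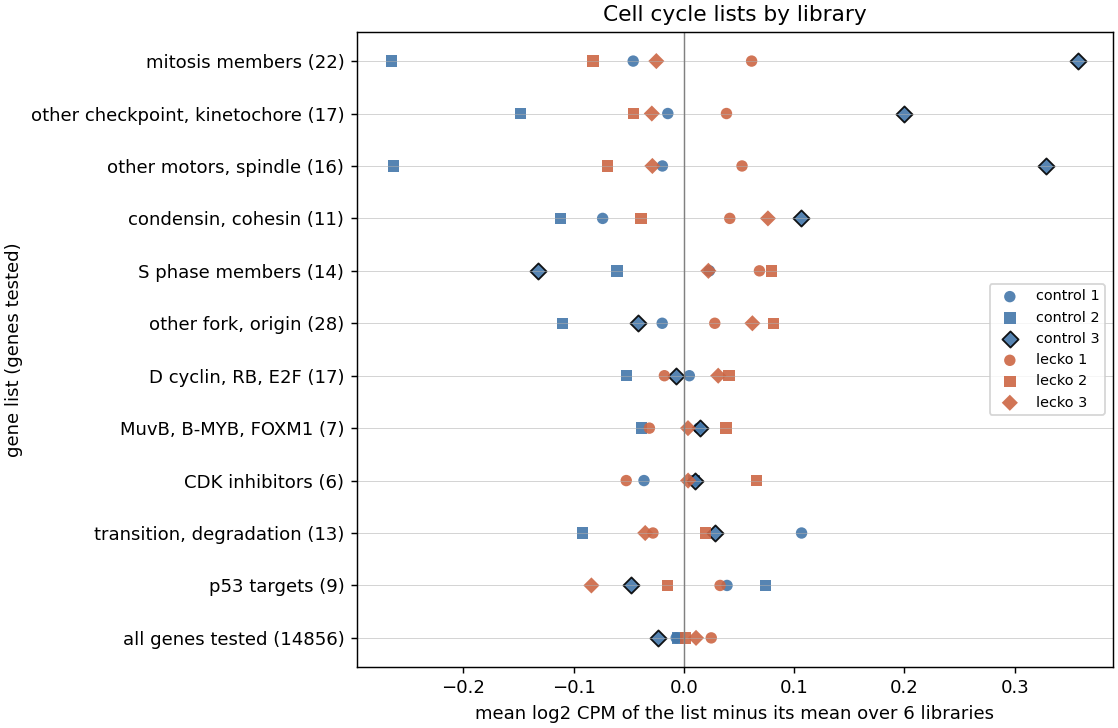
Mean log2 CPM of each gene list in a library minus the list's mean over the 6 libraries (horizontal axis), for the members and the other cell cycle lists, with the number of genes tested in brackets. Control 3 (outlined diamond) lies at 0.36 for mitosis genes and 0.33 for other motors and spindle genes, and at -0.13 for S phase genes, while all genes tested lie within 0.03 of 0 in every library.

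Regulators upstream of both phases gave 0 calls. Among 17 D-type cyclin, RB and E2F genes the median was 0.03, with 11 positive and 0 called, and the RB relatives Rbl2 and Rbl1 had the smallest p. Rbl2 was at 70.3, 70.7 and 76.3 CPM in controls and 79.0, 80.1 and 86.5 CPM in lecko libraries, without overlap (log2 0.18, SE 0.06, adjusted p = 0.526 by edgeR), and Rbl1 was at 0.19. Of the 17, 1 (5.88%) had lecko libraries wholly above controls, against 7.37% of all genes. Another 1 (5.88%) had them wholly below, against 7.23%. The 7 MuvB, B-MYB and FOXM1 genes, whose proteins act on CHR promoters, had a median of 0.02, with Lin37 at -0.18 and Mybl2 at 0.20. Of 7 CDK inhibitor genes, 6 were tested, Cdkn2a being below the filter, with a median of 0.01. Cdkn1a, which encodes p21, was at 382.7, 392.5 and 424.9 CPM in controls and 332.7, 368.4 and 339.9 CPM in lecko libraries, without overlap. Its log2 fold change was -0.21 (SE 0.07, adjusted p = 0.504 by edgeR). Among the 6 tested, 1 (16.7%) had lecko libraries wholly below controls, against 7.23% of all genes, and 0 wholly above, against 7.37%. Other p53 targets had a median of -0.01 over 9 genes, 3 of them positive, Btg2 at 0.45 and Trp53inp1 at -0.41. Genes of phase transitions and protein degradation had a median of -0.06 over 13 genes, with Fzr1 at -0.18 and Cdc27 at 0.08.

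Counts of 5 members, Ccna2, Kif20a, Prc1, Tyms and Ccne2, included values that were not whole numbers, as estimated counts are where reads fit more than 1 gene. In GENCODE vM21 the exons of Kif20a share 1271 bases with Cdc23 on the opposite strand, those of Prc1 share 911 with Rccd1, those of Ccne2 share 609 with Ints8 and those of Ccna2 share 510 with Exosc9. Ube2c shares 592 bases with Tnnc2, a skeletal muscle gene, and Mcm7 shares 321 with Ap4m1, also on the opposite strand. The sources used here do not give the strand setting of the counting, so reads of these pairs may not be separated and the values of these genes are uncertain.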

How the data were processed

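Polyadenylated RNA of ear skin was sequenced in 6 libraries, grouped by their titles. The authors deposited estimated counts per gene, a unit read from the values, of which 9.6 to 10.5% per library were fractional. Tools listed in the submitters' processing notes are RSEM 1.3.1, Bowtie2 2.4.5 and HISAT2 2.2.1, and the build is GRCm38.p6. Their roles and order are not stated. Estimated counts share reads out among genes, so values of overlapping genes depend on that step.

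Counts were rounded and scaled by TMM after filterByExpr (at least 10 counts, total 15) left 14856 of 18482 genes. The test was edgeR 4.0.16 (robust quasi-likelihood, group as the sole term, R 4.3.3), adjusted by Benjamini-Hochberg over all genes tested, threshold 0.05. Standard errors and 95% intervals came from its F statistic. CPM used TMM-scaled library sizes, and log2 CPM a prior count of 2. The members and lists were chosen with earlier results of these data known. No library was treated as a duplicate, since pairs within a group had a chi-square per degree of freedom of 8.15 to 17.41.

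Values in every library are given for members called, for the 4 with the smallest p and the 4 highest per kilobase in each phase, and for Kdr. For other cell cycle lists, up to 2 genes with the smallest p are named. Ube2c, Mki67, Kif11, Bub1, Cdt1, Cdc6 and E2f1 are described by library outside this rule, chosen after their values were seen. Alternatives were DESeq2 1.42.0, limma-voom (limma 3.58.1), other scaling factors and filters, a replicate block, sex as a covariate (above 10 CPM over Y-linked genes) and leaving out each library. The scripts were tested on simulated data.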

Additional observations from a re-analysis of the deposited data

How the results depend on the processing

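In every setting run, 0 of the 36 members were called, and Kdr stayed called with log2 fold changes from -1.78 to -1.62. The median log2 difference of the mitosis genes ranged from -0.19 (without control 2) to 0.13 (without control 3) over single libraries left out, and that of the S phase genes from 0.05 (without lecko 1) to 0.13 (without control 1). Scaling by DESeq2 size factors or upper-quartile factors changed the sign of 2 of the 36 log2 differences, sex as a covariate of 9, and leaving out a library of 2 to 13. The cause of these changes of sign was not tested. With sex as a covariate the median over the MCM2-7 genes was 0.0833 against 0.1491, and against control 1 alone (added once the values were known) it was 0.0767, and 0.0286 for the S phase genes. Both comparisons rest on control 1 as the sole control without Y-linked reads, so they are not separate checks. Over all genes, edgeR called 2 higher and 1 lower, and DESeq2 called 24 higher and 8 lower (32 in all). Leaving out each library gave 3 to 37 genes called, 2 to 36 higher and 1 to 5 lower, the highest total being 37 without control 2, with 8 without control 1 and 6 without lecko 2.

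Replicate numbers are shared between the groups, but nothing in the labels ties same-numbered libraries, and their deviations from the group means correlated at 0.337, -0.072 and 0.035 for numbers 1 to 3. With the number as a replicate block, the mitosis median was -0.0171, the S phase median 0.0904 and 0 members were called. The total of 3 libraries a group and counts of 56 to 78 for Ccne1 limit the precision for the least abundant members.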
